A study of Danio rerio with 30 samples.

Results

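The 9 named alpha and beta tubulins described here were followed in sorted zebrafish neuromast cells: the beta forms tubb6, tubb5, tubb2b, tubb4b and tubb1 and the alpha forms tuba1a, tuba1b, tuba1c and tuba8l4. The names were matched to gene symbols without regard to case, which gave 10 genes among the 32520 of the count table, because 2 genes carry the name tubb2b. The genes were selected on their measured levels in all 4 groups of these same libraries, with tubb6 to be set beside the other forms. The levels and fold changes of the 10 genes are therefore given as a description, without p-values, and support no claim about tubulins as a class. Where a member is said to pass or miss a threshold, this too is only a description. The table holds 8 further alpha and beta tubulin genes, which serve as a comparison.

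Alpha and beta tubulin pair into the dimers from which microtubules are built. Vertebrates carry many genes for each partner, and these genes differ in the cells that use them more than in the proteins they encode. Microtubules carry cargo, shape cells, form the spindle and make up the core of cilia, including the kinocilium of the mechanosensory hair cell. A hair cell stands in a neuromast, the sense organ of the lateral line of fish, among support cells that can replace it after it is killed.

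Expression was measured by RNA-seq of mCherry-positive cells sorted from larvae carrying she:mcherry at 5 days post fertilization. The cells were labelled as neuromast cells of the posterior lateral line. The larvae were isl1apsi97 mutants, with a change in the LIM homeodomain gene isl1a, or siblings, whose own alleles the labels do not give. Mutants and siblings were each taken 3 h after neomycin (300 uM for 30 min), an aminoglycoside that kills lateral line hair cells, or untreated in homeostasis. Each of these 4 groups held 3 libraries with 23918226 to 30354161 counts in genes. The labels do not say whether replicates came from separate clutches or how many larvae were pooled, so an error measures only the spread between these libraries.

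The libraries followed their labels. ISL1 (ENSDARG00000004023, taken as isl1a) held 6, 35 and 0 counts in mutants at 3 h, against 3996, 6634 and 4591 in siblings at 3 h, and 0, 1 and 0 in mutants in homeostasis, against 3351, 5607 and 5189 in siblings. All 21 hair cell marker genes and all 17 support cell marker genes were expressed above the filter. The summed hair cell markers were at 1647 to 3163 CPM (counts divided by the scaled library total in units of 1e6) in mutants and 3071 to 9193 CPM in siblings at 3 h, and at 16030 to 20512 CPM in mutants and 32923 to 39861 CPM in siblings in homeostasis. In such bulk samples, fewer cells of a type and less RNA per cell cannot be told apart. Sibling replicate 2 at 3 h had the lowest scaling factor of the 12 (0.756).

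tubb6 (ENSDARG00000104801), a beta tubulin that in mammals is known for its rise in regenerating muscle, varied most of the members. It was at 36.1, 37.3 and 59.6 CPM in mutants at 3 h, against 1.6, 3.1 and 3.25 CPM in siblings at 3 h. In homeostasis it was at 11.2, 8.79 and 12.4 CPM in mutants, against 0.385, 0.21 and 0.657 CPM in siblings. Every library of mutants thus lay above every library of siblings, and the 4 groups did not overlap anywhere. The order ran upward from siblings in homeostasis through siblings at 3 h and mutants in homeostasis to mutants at 3 h, so untreated mutants held more tubb6 than siblings did after damage. It was the only one of the 17 tubulin genes tested in which none of the 3 steps between neighbouring groups overlapped. How many of all genes had 3 such steps was not counted. Since tubb6 was selected on these levels, nothing is read from this.

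The fitted log2 fold change of tubb6 was 4.68 ± 0.42 (SE) for mutants against siblings in homeostasis and 4.07 ± 0.38 at 3 h. The response to neomycin, 3 h against homeostasis, was 2.04 ± 0.34 in mutants and 2.66 ± 0.41 in siblings. On the log2 scale the responses of the genotypes differed by −0.62 ± 0.52, mutants minus siblings, little more than the standard error. Among the 22000 genes tested, 21 in homeostasis and 15 at 3 h had a higher fold change than tubb6 between genotypes, so its rank from the top was 22 and 16. For the response to neomycin its rank was 282 in mutants and 280 in siblings. In siblings in homeostasis tubb6 rested on 12, 6 and 18 counts, so the folds against that group are the least precise.

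tubb5 (ENSDARG00000037997), a beta tubulin known in zebrafish from the nervous system, followed tubb6 at a smaller scale. It was at 26.6, 35.3 and 41.8 CPM in mutants at 3 h, against 9.79, 16.2 and 11.9 CPM in siblings at 3 h. In homeostasis it was at 9.4, 15.7 and 17.2 CPM in mutants, against 4.97, 4.31 and 7.05 CPM in siblings. No pair of groups that was compared overlapped, while mutants in homeostasis and siblings at 3 h did overlap. The log2 fold change between genotypes was 1.37 ± 0.30 in homeostasis and 1.46 ± 0.30 at 3 h, and that of the response to neomycin was 1.3 ± 0.29 in mutants and 1.21 ± 0.30 in siblings. tubb5 thus differed by about the same factor along both axes, whereas the genotype fold of tubb6 was the larger of its 2 kinds of change.

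**Figure D1:**
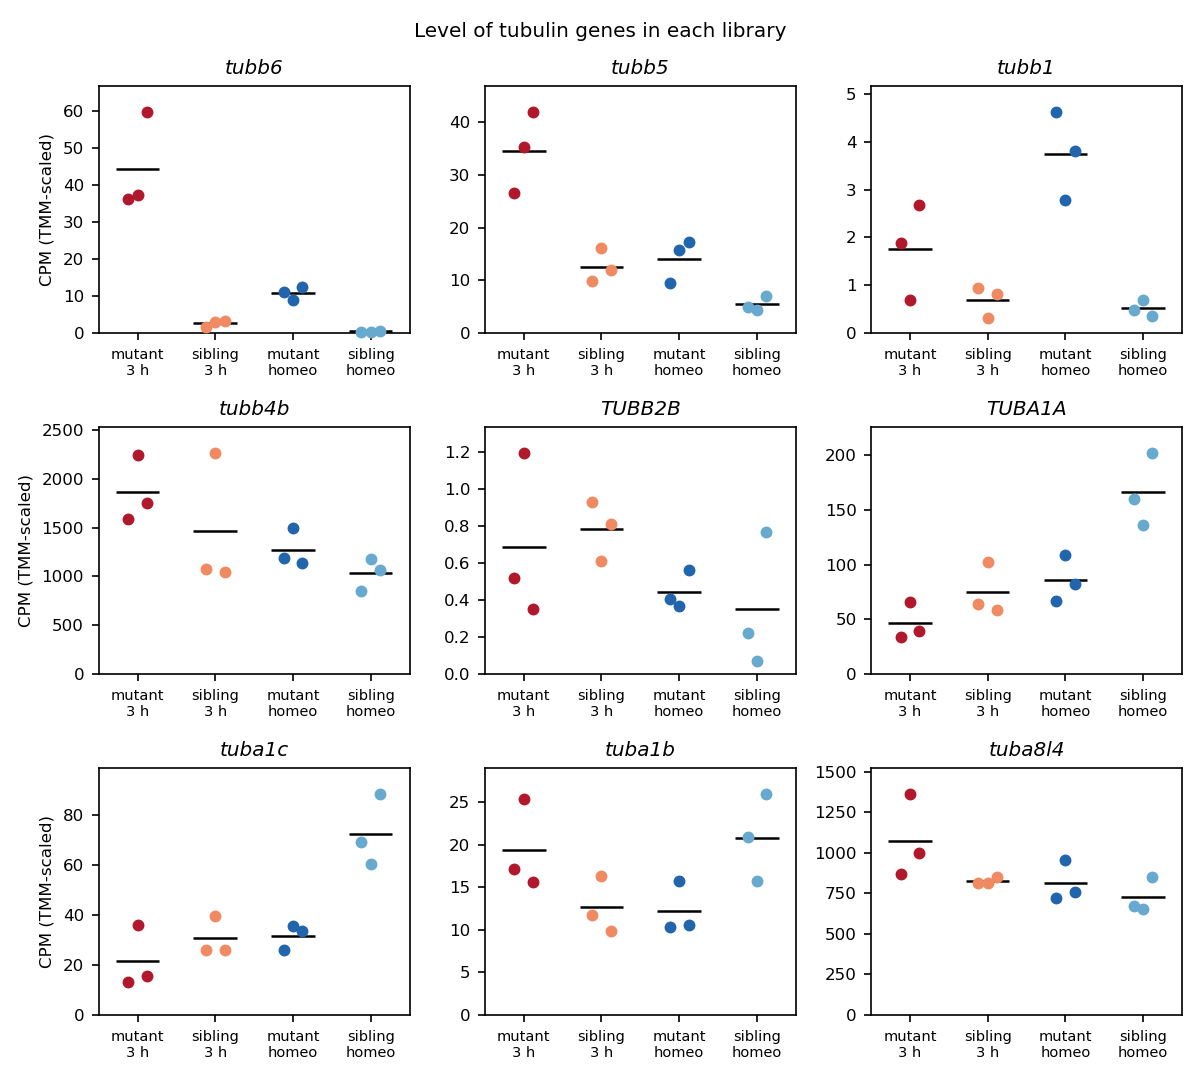
CPM (linear axis from 0, TMM-scaled) of 9 tubulin genes in 12 libraries, in groups of 3 from mutants at 3 h on the left to siblings in homeostasis (homeo) on the right; points are libraries and bars are group means. tubb6 reaches 59.6 CPM in mutants at 3 h and stays at or under 0.657 CPM in siblings in homeostasis, TUBA1A and tuba1c are highest in siblings in homeostasis, and tubb4b (848 to 2260 CPM) and tuba8l4 (655 to 1360 CPM) have groups that mostly overlap.

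tubb1 (ENSDARG00000053066), whose mammalian counterpart forms the marginal band of platelets, was a scarce transcript with its highest level in untreated mutants. It was at 1.89, 0.682 and 2.69 CPM in mutants and 0.933, 0.305 and 0.812 CPM in siblings at 3 h. In homeostasis it was at 4.62, 2.79 and 3.82 CPM in mutants, against 0.481, 0.701 and 0.365 CPM in siblings. Mutants in homeostasis lay above all the other libraries, and the genotypes overlapped at 3 h. The log2 fold change between genotypes was 2.85 ± 0.55 in homeostasis and 1.34 ± 0.53 at 3 h. In mutants tubb1 was lower at 3 h than in homeostasis without overlap (−1.09 ± 0.51), the opposite sign to tubb6 and tubb5. This fold missed the threshold and passed in 0 of 17 alternatives. The nearest libraries were mutant replicate 2 in homeostasis (2.79 CPM) and mutant replicate 3 at 3 h (2.69 CPM). Both held 76 counts of tubb1, so only their scaled library totals set them apart.

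Markers of red blood cells and of muscle were also higher in mutants than in siblings in homeostasis. The 9 erythrocyte marker genes, none of them at 0, summed to 721 to 1496 CPM in mutants and 310 to 554 CPM in siblings at 3 h, and to 1152 to 1638 CPM in mutants and 137 to 233 CPM in siblings in homeostasis. In the genotype comparison in homeostasis 8 of these 9 passed an adjusted p of 0.05, all higher, against 1.85% of all genes. At 3 h the genotypes did not overlap in these markers either, as for tubb6 and tubb5. None of the 12 skeletal muscle markers was at 0 throughout a group. They summed to 88.5 to 152 CPM in mutants and 76.0 to 92.6 CPM in siblings at 3 h. In homeostasis they summed to 150 to 255 CPM in mutants and 53.7 to 69.6 CPM in siblings. The group medians of both marker lists had the order of tubb1. After neomycin the median log2 fold change in mutants was −0.30 for the erythrocyte and −0.74 for the muscle markers. In siblings these medians were 1.25 and 0.67. Of the 9 erythrocyte markers 4 were called higher in siblings, where 11.2% of all genes were, and none was called in mutants. Both tubb6 and tubb5 rose in each genotype. Among epidermis markers epcam averaged 5512 CPM in mutants and 3312 CPM in siblings at 3 h, and 3691 and 2351 CPM in homeostasis. This is the group order of tubb6, whereas krt5 was lowest in mutants at 3 h. The summed level of all 13 epidermis markers did not have that order. Its median was 5641 CPM in mutants and 3305 CPM in siblings at 3 h, and 4904 and 4197 CPM in homeostasis. Between genotypes 2 of the 13 were called higher and 0 lower in homeostasis (1.85% and 1.72% of all genes). At 3 h 1 was higher and 1 lower (4.9% and 4.88%). Of the 14 leukocyte markers 4 rose in mutants and 12 in siblings after neomycin, where 6.95% and 11.2% of all genes did. What part these cell types had in the results for tubb1, tubb6 and tubb5 was not tested.

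tubb4b (ENSDARG00000002344), a widely used beta tubulin that also builds ciliary axonemes, took most beta tubulin counts in every library. It was at 1589, 2243 and 1754 CPM in mutants and 1075, 2260 and 1050 CPM in siblings at 3 h, and at 1193, 1495 and 1139 CPM in mutants and 848, 1178 and 1067 CPM in siblings in homeostasis. The high value among siblings at 3 h came from replicate 2. The 4 log2 fold changes ran from 0.31 ± 0.29 to 0.55 ± 0.29, none past the threshold of an adjusted p under 0.05 over all genes tested, and mutants at 3 h lay above mutants in homeostasis without overlap. Without sibling replicate 2 at 3 h the fold between genotypes at 3 h was 0.82 and passed, the response of mutants (0.53) passed, and the response of siblings was −0.0038. The response of mutants also passed in a fit of both mutant groups alone.

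Of the 2 genes named tubb2b, one (ENSDARG00000098591) had 0 counts in all 12 libraries, which allows a level of at most 0.0962 to 0.131 CPM at 3 counts a library. The other, listed as TUBB2B (ENSDARG00000039522), had 2 to 28 counts a library and at most 1.19 CPM, and its groups overlapped in each of the 4 comparisons. Its log2 fold changes ran from −0.20 ± 0.68 between genotypes at 3 h to 1.15 ± 0.71 in siblings after neomycin, none past the threshold. Without sibling replicate 3 in homeostasis the response of siblings was 2.37 and passed. In mammals TUBB2B is known from the developing brain. Both genes were thus at or close to 0 among the reads assigned to a single gene.

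The alpha tubulins of the tuba1 type behaved unlike tubb6. RefSeq lists tuba1c, tuba1a and tuba1b as direct neighbours on 1 chromosome of another zebrafish assembly, and fish alpha 1 tubulins are known for their expression in growing and regenerating neurons. TUBA1A (ENSDARG00000001889, the tuba1a of the table) was at 33.5, 66.2 and 39.0 CPM in mutants and 64.0, 102 and 58.8 CPM in siblings at 3 h. In homeostasis it was at 66.7, 109 and 82.6 CPM in mutants and 160, 136 and 202 CPM in siblings. Siblings in homeostasis lay above all the other libraries.

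The log2 fold change of TUBA1A after neomycin was −0.90 ± 0.30 in mutants, without overlap but short of the threshold, and in siblings it fell by 1.15 ± 0.30 and passed. For genes selected on these values, passing the threshold only describes the fit and supports nothing. The response of mutants passed in 6 of 17 alternatives. These were DESeq2, no filter, a fit of both groups alone, the replicate block, and without mutant or sibling replicate 2 at 3 h. Between genotypes the fold was −0.95 ± 0.30 in homeostasis, without overlap but short of the threshold, and −0.70 ± 0.30 at 3 h, with overlap. The fold in homeostasis passed in DESeq2, in a fit of both groups alone, with the block and without sibling replicate 2 at 3 h. tuba1c (ENSDARG00000055216) was at 13.3, 35.9 and 15.6 CPM in mutants and 26.1, 39.7 and 26.0 CPM in siblings at 3 h, and at 26.0, 35.6 and 33.4 CPM in mutants and 68.9, 60.2 and 88.1 CPM in siblings in homeostasis. It too was highest in siblings in homeostasis, without overlap with any other group. Its log2 fold change after neomycin was −0.55 ± 0.34 in mutants, and it fell by 1.24 ± 0.34 in siblings. Without mutant replicate 2 at 3 h the response of mutants was −1.13 and passed the threshold. Between genotypes the fold was −1.19 ± 0.34 in homeostasis, short of the threshold, and it passed in DESeq2, in a fit of both groups alone, with the block and without mutant or sibling replicate 2 at 3 h. At 3 h it was −0.50 ± 0.34, with overlap, and without mutant replicate 2 at 3 h it was −1.08 and passed.

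TUBA1A and tuba1c varied together over the 12 libraries (Pearson r = 0.977 of log2 CPM) and also within groups (r = 0.939 of the deviations from group means). These correlations describe libraries that share depth and sorting. Reads that fit more than 1 gene are listed apart from the genes, so values of similar paralogs are uncertain. The third neighbour, tuba1b (ENSDARG00000045367), did not share the group pattern. It was at 17.1, 25.4 and 15.6 CPM in mutants and 11.7, 16.4 and 9.91 CPM in siblings at 3 h, and at 10.3, 15.7 and 10.6 CPM in mutants and 20.9, 15.7 and 25.9 CPM in siblings in homeostasis. Its response to neomycin was 0.66 ± 0.28 in mutants and −0.72 ± 0.28 in siblings, neither past the threshold, and each with overlapping groups. Without sibling replicate 2 at 3 h the response of siblings was −0.99 and passed. Between genotypes it was at −0.77 ± 0.28 in homeostasis, where the groups met without overlapping, and at 0.61 ± 0.28 at 3 h, with overlap. The difference between these responses, 1.38 ± 0.40, did not pass the threshold in edgeR and passed in DESeq2. That of tubb1 was −1.51 ± 0.75, in the other direction, and did not pass in either tool. Within groups, however, tuba1b deviated with TUBA1A almost as tuba1c did (r = 0.932). Such correlations were not limited to neighbours. Within groups tuba5 (r = 0.807) and tuba8l4 (r = 0.794), which RefSeq does not list beside TUBA1A, deviated with it as well. tubb1 deviated the other way (r = −0.917), and tuba8l2 hardly followed it (r = 0.02).

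The fold changes of TUBA1A and tuba1c were negative in all 4 comparisons, and in the main fit they passed the threshold only in siblings after neomycin. The hair cell markers had a negative median log2 fold change in each comparison. After neomycin it was −2.08 in mutants and −2.24 in siblings. No correlation between these 2 genes and the markers was computed. After neomycin 15 of 21 hair cell markers fell in mutants and none rose, where 9.56% of all genes fell and 6.95% rose. In siblings 16 fell and 1 rose, where 10.8% of all genes fell and 11.2% rose. Between genotypes 4 were lower in mutants in homeostasis and 5 at 3 h, and none was higher. Of all genes 1.72% and 4.88% were lower in these comparisons. Neurons are another possible source of tuba1 transcripts. Of 18 neuron marker genes 15 passed the filter, and syt1b was at 0. The whole list summed to 56.3 to 71.9 CPM in mutants and 39.1 to 83.2 CPM in siblings at 3 h. In homeostasis it summed to 50.6 to 63.5 CPM in mutants and 72.4 to 73.4 CPM in siblings. The median sum was 62.1 CPM in mutants and 42.0 CPM in siblings at 3 h, and 61.0 and 73.3 CPM in homeostasis. A sum over 18 genes and the level of TUBA1A alone (33.5 to 202 CPM) are unlike measures, so their sizes are not compared. The most abundant neuron marker, sncb, had the group order of TUBA1A and tuba1c. It averaged 4.65 CPM in mutants and 13.8 CPM in siblings at 3 h, and 22.2 and 48.5 CPM in homeostasis. ELAVL3 was instead lowest in siblings in homeostasis (5.76 CPM). After neomycin 2 neuron markers rose and 1 fell in each genotype. Their median log2 fold change was then 0.43 in mutants and 0.67 in siblings, beside −0.04 and 0.10 for all genes. Between genotypes the median was 0.59 in homeostasis and 0.23 at 3 h, beside 0.01 and −0.14. No neuron marker was called lower in mutants than in siblings, unlike the direction of the summed level in homeostasis. What part hair cells or neurons had in the tubulin levels was not tested.

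tuba8l4 (ENSDARG00000006260), an alpha tubulin, was at 868, 1360 and 999 CPM in mutants and 815, 811 and 850 CPM in siblings at 3 h. In homeostasis it was at 723, 953 and 757 CPM in mutants and 673, 655 and 851 CPM in siblings. Mutants lay above siblings at 3 h by a narrow margin, and the other comparisons overlapped. Its fold changes ran from 0.16 ± 0.21 to 0.41 ± 0.21 on the log2 scale.

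Counted over the members, 9 of the 10 genes passed the filter on low counts, one of the 2 tubb2b genes being at 0. In homeostasis 3 of the 9 were past an adjusted p of 0.05 and higher in mutants (tubb6, tubb5 and tubb1) and none was lower, where 1.85% of the 22000 genes tested were higher and 1.72% lower. At 3 h 2 were higher (tubb6 and tubb5), against 4.9% of all genes. In mutants 2 rose after neomycin (tubb6 and tubb5), against 6.95%, and none fell, against 9.56%. In siblings 2 rose (tubb6 and tubb5) and 2 fell (TUBA1A and tuba1c), against 11.2% and 10.8%. No member passed in the difference between the responses, where 0.1% of all genes passed as higher and 0.00455% as lower, 0.105% in all. At an unadjusted p under 0.05 there was 1 member, where 1955 of the 22000 genes were, and DESeq2 called tuba1b. Counted by groups that did not overlap, 3 of 9 were higher and 3 lower in mutants in homeostasis (14.5% and 15.4% of all genes), and at 3 h mutants were above siblings for 3 and below for 0 (12.3% and 13.6%). After neomycin 3 were higher and 2 lower in mutants (20.8% and 22.7%), and 2 higher and 2 lower in siblings (17.5% and 17.2%). Since these contrasts chose the members, nothing is read from the counts, and tubb6 and tubb1 are so low in untreated siblings that they passed the filter through the groups where they are high.

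The calls differed in how they bore the loss of a library. Since the genes were selected on these values, this is a description of the libraries and supports nothing. tubb6 was past the threshold in each of the alternatives run, with log2 fold changes from 4.37 to 5.15 in homeostasis, 3.80 to 4.25 at 3 h, 1.77 to 2.17 in mutants after neomycin and 2.34 to 3.12 in siblings after neomycin. tubb5 kept its calls at 3 h and in mutants throughout. Its call in homeostasis was lost when mutant replicate 2 or 3, or sibling replicate 1 or 2, of the untreated libraries was left out (log2 fold change 1.2 to 1.60 over the alternatives), and its call in siblings was lost without untreated sibling replicate 1 or 2 and in a fit of both sibling groups alone (0.95 to 1.44). The call of tubb1 was lost when untreated mutant replicate 1 or 3, or untreated sibling replicate 1 or 3, was left out (2.66 to 3.13). TUBA1A and tuba1c did not pass in siblings without replicate 3 at 3 h or replicate 3 in homeostasis (−1.48 to −0.99 and −1.52 to −1.08).

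**Figure D2:**
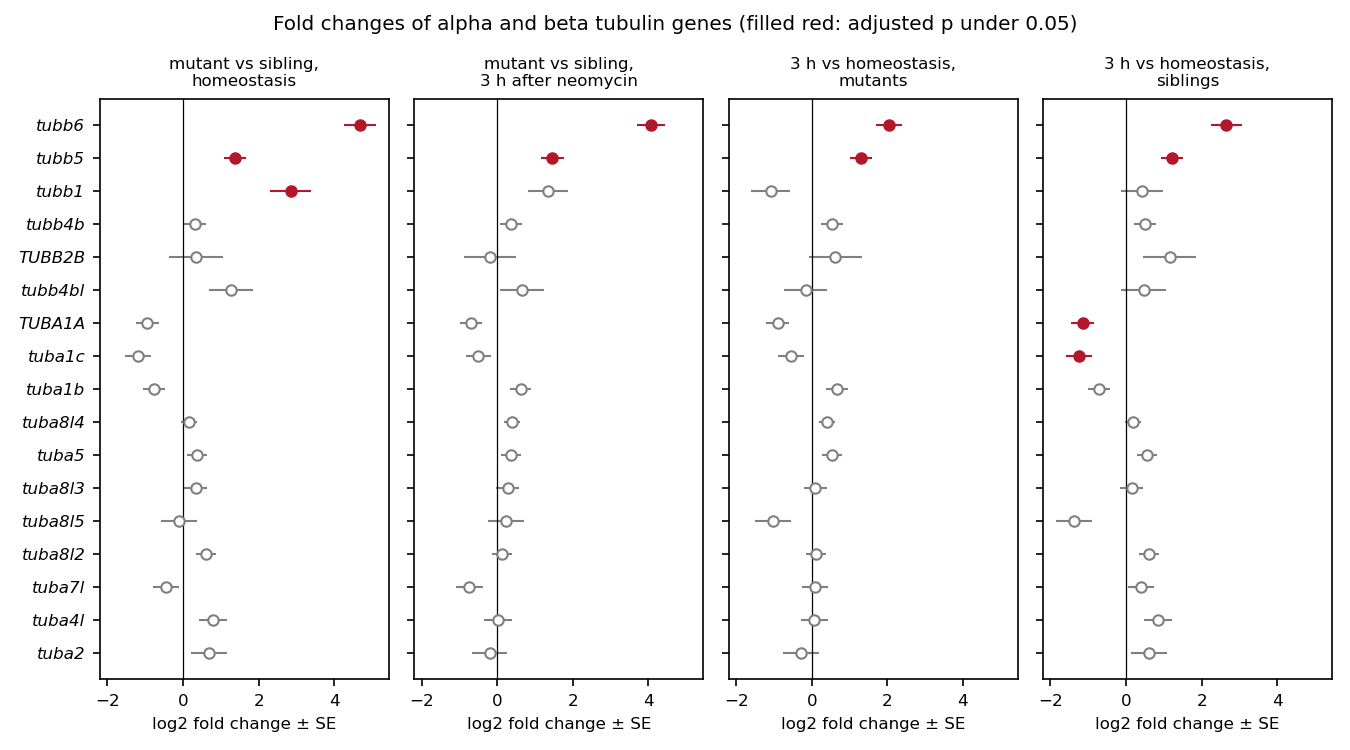
Fitted log2 fold change (horizontal axis) with its standard error for the 17 alpha and beta tubulin genes tested, in 4 comparisons; filled red points passed an adjusted p of 0.05 over all 22000 genes and open grey points did not. tubb6 stands farthest to the right in every panel, from 2.04 to 4.68, and of the 8 tubulin genes that were not members (tubb4bl and tuba5 to tuba2) none is filled.

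None of the 8 other tubulin genes (tuba5, tuba8l3, tuba8l5, tuba8l2, tuba7l, tuba4l, tuba2 and tubb4bl) passed an adjusted p of 0.05 in any comparison in the main fit (edgeR's quasi-likelihood test). At an unadjusted p under 0.05 there were 3 between genotypes in homeostasis, 0 at 3 h, 0 in mutants and 3 in siblings after neomycin, and DESeq2 called 1, tuba8l5 in siblings. Of all 22000 genes tested, 3508, 5766, 6326 and 7533 had an unadjusted p under 0.05 in these comparisons, in the same order. Their fold changes were not all small: tubb4bl was at 1.28 between genotypes in homeostasis (adjusted p = 0.31), and tuba8l2 passed in siblings after neomycin without sibling replicate 3 at 3 h (0.82, adjusted p = 0.047). Their median log2 fold change was 0.49 between genotypes in homeostasis, 0.17 between genotypes at 3 h, 0.08 in mutants after neomycin and 0.51 in siblings after neomycin, beside 0.01, −0.14, −0.04 and 0.10 for all genes tested. tuba5 (ENSDARG00000042708), an abundant alpha form, was at 700, 1065 and 831 CPM in mutants and 496, 992 and 532 CPM in siblings at 3 h, and at 606, 630 and 548 CPM in mutants and 400, 443 and 540 CPM in siblings in homeostasis. Mutants and siblings did not overlap in homeostasis, but the fold of 0.37 ± 0.27 was not called (adjusted p = 0.59), nor was that at 3 h (0.36 ± 0.27, adjusted p = 0.42). Without sibling replicate 2 at 3 h, tuba5 was called higher in mutants at 3 h (adjusted p = 0.019) and after neomycin in mutants (0.029). Its response in mutants was also called in a fit of both mutant groups alone (0.032).

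tuba5 varied with tubb4b, the main beta form, over the libraries (r = 0.960) and within groups (r = 0.922). tuba8l3 and tuba8l5, which RefSeq also lists as neighbours, deviated together within groups (r = 0.930), although their group levels differed (r = 0.456 over all libraries). tuba8l5 (ENSDARG00000094466) was at 28, 70.9 and 34.0 CPM in mutants and 35.9, 37.3 and 40.4 CPM in siblings at 3 h, and at 62.1, 156 and 53.4 CPM in mutants and 47.0, 148 and 98.7 CPM in siblings in homeostasis. Sibling libraries at 3 h lay below those in homeostasis, and the fold of −1.37 ± 0.48 had an adjusted p of 0.059. It passed without mutant replicate 2 at 3 h (0.045), mutant replicate 2 in homeostasis (0.029) or sibling replicate 1 in homeostasis (0.024). With all libraries it passed in edgeR with no filter on low counts (0.039), in DESeq2 (0.019) and with the replicate block (0.017).

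The mix of beta tubulin counts shifted towards tubb6 and tubb5. tubb6 took 2.33% ± 0.808 of the beta counts in mutants at 3 h (SD, n = 3, as for all shares), against 0.196% ± 0.0942 in siblings at 3 h, and 0.848% ± 0.246 in mutants in homeostasis, against 0.0413% ± 0.0219 in siblings. tubb5 took 1.79% ± 0.398 in mutants and 0.907% ± 0.201 in siblings at 3 h, and 1.09% ± 0.350 in mutants and 0.534% ± 0.151 in siblings in homeostasis. In mutants at 3 h tubb6 had a larger mean share than tubb5, whereas tubb5 had the larger one in the other groups. These are shares of reads, not of transcripts, because the files give no transcript lengths.

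tubb4b still held 95.7% ± 1.23 of the beta counts in mutants and 98.7% ± 0.363 in siblings at 3 h, and 97.6% ± 0.622 in mutants and 99.3% ± 0.163 in siblings in homeostasis. Among the alpha counts the share of TUBA1A was 1.84% ± 0.236 in mutants and 3.71% ± 0.503 in siblings at 3 h, and 4.29% ± 0.549 in mutants and 9.07% ± 1.27 in siblings in homeostasis. That of tuba1c was 0.833% ± 0.269, 1.52% ± 0.109, 1.60% ± 0.233 and 3.95% ± 0.508 in the same groups. Both shares were lower in mutants than in siblings and lower at 3 h than in homeostasis, without overlap between the groups compared. The summed level of all beta forms was 1945 ± 340 CPM in mutants and 1480 ± 694 CPM in siblings at 3 h, and 1307 ± 190 CPM in mutants and 1038 ± 168 CPM in siblings in homeostasis (SD, n = 3). That of all alpha forms was 2468 ± 603, 1995 ± 366, 1996 ± 323 and 1832 ± 274 CPM in the same groups, so the totals differed less than the minor forms did.

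**Figure D3:**
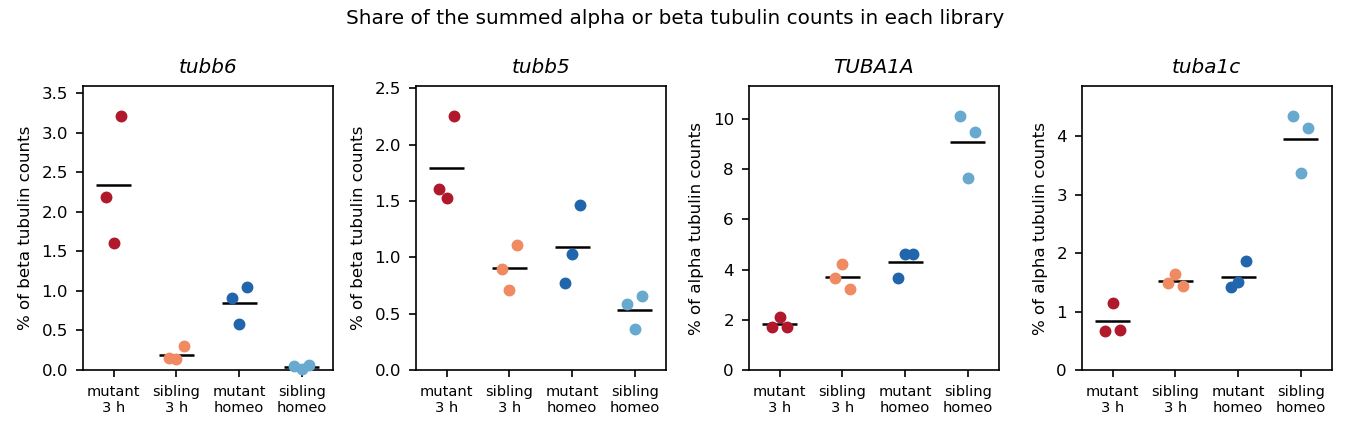
Share of tubb6 and tubb5 in the summed beta tubulin counts and of TUBA1A and tuba1c in the summed alpha tubulin counts (percent, linear axis from 0), with 1 point per library, a bar at the group mean and groups from mutants at 3 h on the left to siblings in homeostasis (homeo) on the right. tubb6 has a mean share of 2.33% in mutants at 3 h and 0.0413% in siblings in homeostasis, and TUBA1A runs the other way, from 1.84% to 9.07%.

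The genes whose pattern was most like that of tubb6 were found by Pearson correlation of log2 CPM over the 12 libraries. The closest with an informative name were ms4a17a.4 (r = 0.991), ANXA2 (0.989), ms4a17a.12 (0.985), ets2 (0.982), ESM1 (0.982), tnfrsf1a (0.981), JUNB (0.978), MYL9 (0.977), SLC38A5 (0.975) and CDC42SE1 (0.975). Among 21999 genes 205 had r above 0.9, and the median was −0.02. These genes were picked for their likeness, so their levels are only described.

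ANXA2 (ENSDARG00000003216), a calcium-dependent membrane-binding annexin, was at 454 ± 74.4 CPM in mutants and 120 ± 33.3 CPM in siblings at 3 h, and at 183 ± 17.9 CPM in mutants and 39.7 ± 8.04 CPM in siblings in homeostasis (SD, n = 3). JUNB (ENSDARG00000104773), an AP-1 subunit, was at 676 ± 11.8, 157 ± 55.2, 309 ± 55.7 and 74.9 ± 20.4 CPM in the same groups. Of these 10 genes ANXA2 also deviated most like tubb6 within groups, with r = 0.885 of the deviations from group means, and the other 9 ranged from 0.50 to 0.795. Among the tubulins tubb5 came closest, at rank 72 of all genes (r = 0.937 over libraries, 0.640 within groups). TUBA1A and tuba1c had r = −0.796 and −0.791 over libraries and 0.185 and 0.165 within groups.

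**Figure D4:**
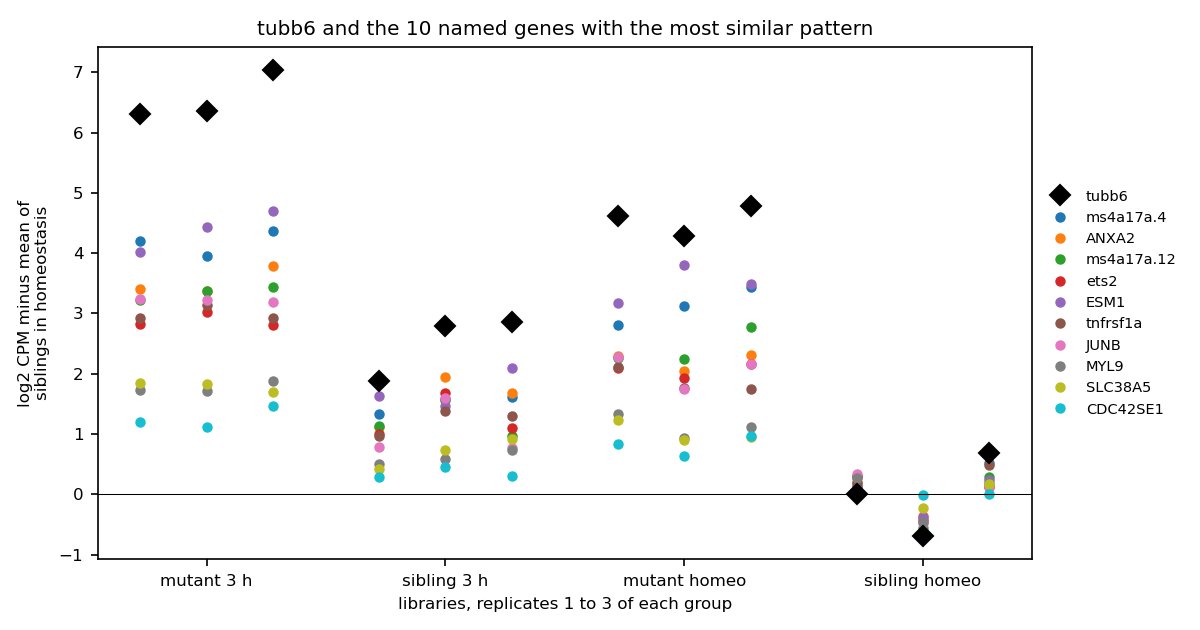
log2 CPM minus the mean of siblings in homeostasis (vertical axis) for tubb6 (black diamonds) and the 10 named genes most correlated with it (circles), in replicates 1 to 3 of each group. All 11 genes share the order of the groups, and tubb6 lies above the other 10 in all 3 mutant libraries at 3 h.

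RefSeq's gene span of tubb6 on that other assembly also covers ECI2, cidea, SUGCT and the long non-coding RNA LOC141380805, whose reads could be mixed up with those of tubb6 because the kit does not mark strand. LOC141380805 was not matched to an Ensembl gene of the table and was not analysed here, and none of the other 3 shared its pattern. ECI2, an enzyme of fatty acid oxidation, averaged 30.5 CPM in mutants and 41.2 CPM in siblings at 3 h, and 39.4 CPM in mutants and 37.0 CPM in siblings in homeostasis. SUGCT averaged 6.28, 5.76, 9.90 and 10.4 CPM in the same groups, and cidea was at or near 0. Neither ECI2 (adjusted p from 0.17 to 0.91) nor SUGCT (0.061 to 0.96) was called in the 4 comparisons.

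The wider microtubule machinery was described by 7 lists with 155 tested genes, the 8 other tubulins among them. Between genotypes 3 of the 155 were called in homeostasis, where 3.57% of all genes were, and 13 at 3 h, where 9.78% were. In homeostasis DESeq2 called 13 and a fit of both groups alone 21, where they called 1796 and 2217 of all genes, against 785 in the main fit. After neomycin 25 were called in mutants, where 16.5% of all genes were, and 44 in siblings, where 22% were. Of these, 20 of the 25 were lower in mutants, where 2104 of the 3634 called genes were, and 34 of the 44 in siblings, where 2367 of the 4831 were; the difference in split was not tested. No list gene passed in the difference between the responses, where 11 had an unadjusted p under 0.05 and DESeq2 called 3. Of all 22000 genes tested 1955 had an unadjusted p under 0.05 in that difference. Without sibling replicate 2 at 3 h the count in mutants was 51, that at 3 h was 21 and that in homeostasis was 14. The calls over all genes rose in that setting as well, to 6147, 2964 and 2079, from 3634, 2151 and 785. They also changed when other libraries were left out. Changed counts of single lists, here and below, are thus not particular to microtubule genes. Without any single mutant library at 3 h the count at 3 h was 4 to 7, and it was 7 without mutant replicate 1 or 3 in homeostasis. Without mutant replicate 1, 2 or 3 or sibling replicate 2 in homeostasis the count in homeostasis was 0 or 1.

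Among 15 tubulin folding genes 2 rose and 1 fell in mutants after neomycin, and 7 rose and 2 fell in siblings. Of all genes 6.95% rose and 9.56% fell in mutants, and 11.2% rose and 10.8% fell in siblings, and the counts of the lists that follow are to be read against these shares. The median log2 fold change of the folding genes was 0.46 in mutants, beside −0.04 for all genes, and 0.999 in siblings, beside 0.10, the highest of the 7 lists in both. PFDN2, a prefoldin subunit that hands tubulin chains to the folding machinery, was at 144 ± 27.3 CPM in mutants at 3 h, against 63.2 ± 2.69 CPM in mutants in homeostasis (SD, n = 3; adjusted p = 0.0095), and at 142 ± 65.2 CPM in siblings at 3 h, against 49.4 ± 3.92 CPM in siblings in homeostasis (adjusted p = 0.0017). TBCB, a cofactor that binds alpha tubulin, was at 265 ± 28.7 CPM in mutants at 3 h, against 117 ± 8.61 CPM in homeostasis (adjusted p = 0.0055), and at 194 ± 67.7 CPM in siblings at 3 h, against 89.5 ± 16.9 CPM in homeostasis (adjusted p = 0.0056). TBCEL (ENSDARG00000019525), a cofactor-like protein that destabilises tubulin in human cells, fell to 24.5 ± 2.31 CPM in mutants at 3 h, against 50.3 ± 1.99 CPM in homeostasis (adjusted p = 0.00074), and to 37.2 ± 3.18 CPM in siblings at 3 h, against 69.0 ± 3.09 CPM in homeostasis (adjusted p = 0.0014). Another gene of the list (ENSDARG00000002682) also carries the name TBCEL, and these values are not its own. Between genotypes TBCEL (ENSDARG00000019525) was the only folding gene called, lower in mutants at 3 h, where 4.88% of all genes were. That call was lost in several alternatives. The 2 that rose in mutants became 4 and 8 without sibling replicate 1 or 2 at 3 h, and the 1 that fell became 2 without sibling replicate 2 at 3 h. The 7 that rose in siblings became 4 without sibling replicate 2 in homeostasis, and the 2 that fell became 1 without sibling replicate 2 or 3 in homeostasis or mutant replicate 1 or 3 at 3 h.

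Enzymes that modify tubulin were the list with the lowest median after neomycin, at −0.58 in mutants and −0.96 in siblings. Of 26 genes, 9 fell and 1 rose in mutants, and 13 fell and none rose in siblings. Without sibling replicate 2 at 3 h 14 fell in mutants and 2 rose in siblings, and without any 1 mutant replicate in homeostasis, or mutant replicate 2 at 3 h, none rose in mutants. agbl2, a carboxypeptidase of the tubulin tail, was at 3.47 ± 0.369 CPM in mutants at 3 h, against 17.3 ± 3.08 CPM in homeostasis, and at 4.36 ± 1.25 CPM in siblings at 3 h, against 24.0 ± 3.70 CPM in homeostasis (log2 fold changes −2.32 and −2.46). TTLL3, a glycylase of ciliary tubulin, was at 5.30 ± 1.88 CPM in mutants at 3 h, against 25.9 ± 2.80 CPM in homeostasis, and at 9.48 ± 2.17 CPM in siblings at 3 h, against 33.9 ± 10.5 CPM in homeostasis. AGBL5, another tail carboxypeptidase, fell as well in mutants (−1.41 on the log2 scale) and in siblings (−1.74). No gene of this list was called between genotypes in the main edgeR fit, where 4 in homeostasis and 6 at 3 h had an unadjusted p under 0.05. Of all 22000 genes tested 3508 and 5766 did. DESeq2 called 1 lower in homeostasis and 2 higher and 2 lower at 3 h. TTLL11 was also called lower in mutants in homeostasis in edgeR with both groups alone (adjusted p = 0.011) and without sibling replicate 2 at 3 h (0.0225).

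Among 40 stabilising and end-binding proteins 2 rose and 4 fell in mutants after neomycin, and 3 rose and 9 fell in siblings, in mutants close to the shares of all genes (6.95% and 9.56%; 11.2% and 10.8% in siblings). mtus1a, a microtubule-associated protein, was at 9.36 ± 1.90 CPM in mutants at 3 h, against 66.3 ± 15.4 CPM in homeostasis, and at 21.3 ± 5.15 CPM in siblings at 3 h, against 167 ± 25.8 CPM in homeostasis. CLIP2, a plus-end linker, and mapre1b, an end-binding protein, were the 2 that rose in mutants, by 1.88 and 1.17 on the log2 scale. CLIP2 was also higher in mutants than in siblings at 3 h, at 79.5 ± 13.9 against 28.6 ± 7.95 CPM (adjusted p = 0.0026). In that comparison 4 genes of the list were higher and 2 lower, mtus1a among the lower (4.9% and 4.88% of all genes). In homeostasis mtus1a was the only call, lower in mutants, where 1.72% of all genes were. Both of its genotype calls were lost in some alternatives. After neomycin the 2 that rose and 4 that fell in mutants became 5 and 7 without sibling replicate 2 at 3 h. The 3 that rose in siblings became 6 without sibling replicate 1 in homeostasis.

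Of 16 destabilisers 3 fell in mutants and 4 fell in siblings, where 9.56% and 10.8% of all genes fell, and none rose. KATNAL2 and KATNAL1, katanin-like severing enzymes, fell in both, by 1.78 and 1.57 on the log2 scale in mutants and by 1.97 and 1.22 in siblings. Between genotypes FIGN and STMN1 (ENSDARG00000004169) were called lower in mutants at 3 h, where 4.88% of all genes were. Both calls were lost in some alternatives, and no destabiliser was called in homeostasis. Of 41 motor genes 3 fell in mutants and 6 in siblings, near the same shares of 9.56% and 10.8%. None rose, though 4 rose in mutants without sibling replicate 2 at 3 h and, in siblings, 2 without sibling replicate 1 and 1 without replicate 3 at 3 h. KIF1A (ENSDARG00000061817), a kinesin that carries synaptic vesicle precursors, was at 21.49 ± 2.7 CPM in mutants at 3 h, against 107 ± 8.60 CPM in homeostasis, and at 40.5 ± 15.3 CPM in siblings at 3 h, against 239 ± 21.8 CPM in homeostasis. The 3 motor genes that fell in mutants became 1 without mutant replicates 1 or 2 at 3 h and 5 without sibling replicate 2 at 3 h. KIF1A was lower in mutants than in siblings in homeostasis (adjusted p = 0.017). That call was lost without mutant replicate 1 (0.088), 2 (0.058) or 3 (0.070) or sibling replicate 2 in homeostasis (0.072). The only other motor call in homeostasis was kif1ab, also lower (1.72% of all genes). At 3 h KIF1A was again lower, and KIF3A (0.62), DCTN1 (ENSDARG00000056753, 2.60) and DYNC1LI2 (0.57 on the log2 scale) were higher in mutants. Of all genes 4.88% were lower and 4.9% higher there. Each of these genotype calls was lost in some alternatives. Hair cell markers fell in the same comparisons as the modifying enzymes and KIF1A, and their part in these falls was not tested. The 9 tested gamma, delta and epsilon tubulin and ring complex genes, which include the nucleators of microtubules, had no call, with at most 2 at an unadjusted p under 0.05 in a comparison and 0 called by DESeq2. Of all 22000 genes tested 3508 to 7533 had such a p in the genotype and neomycin comparisons. TUBG1 averaged 66.2 CPM in mutants and 69.3 CPM in siblings at 3 h, and 76.2 CPM in mutants and 71.6 CPM in siblings in homeostasis.

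**Figure D5:**
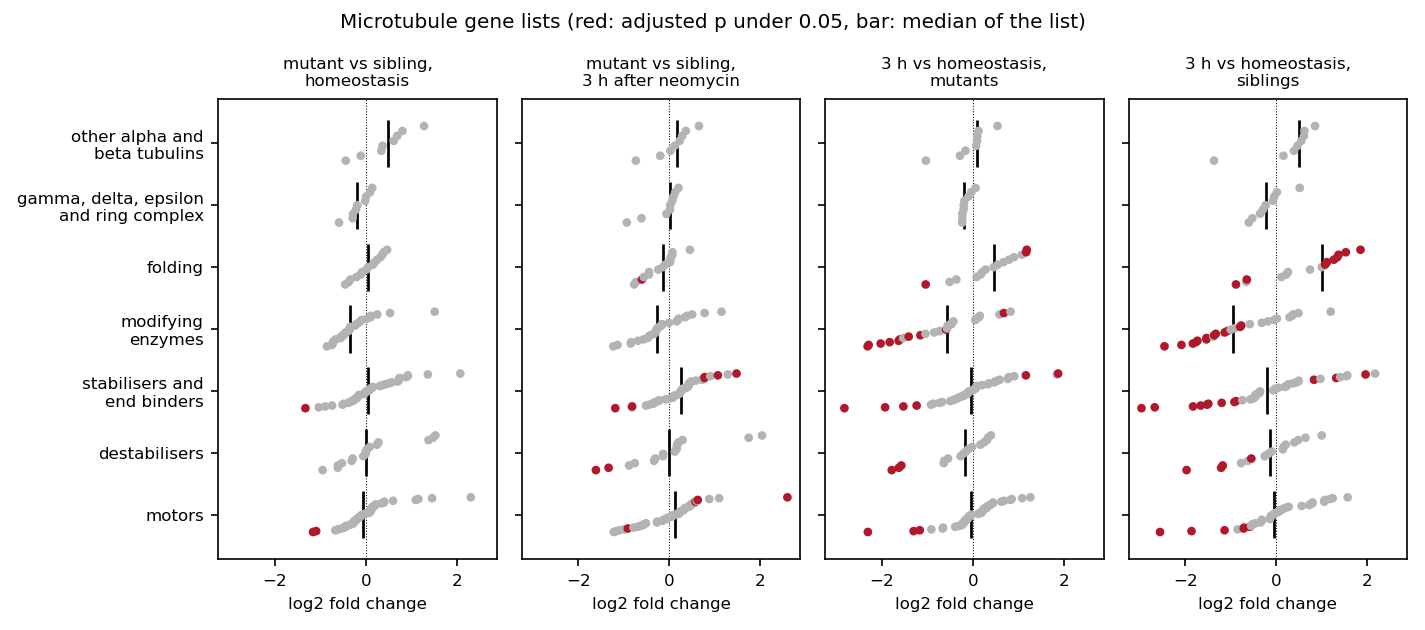
log2 fold change (horizontal axis) of each tested gene in 7 microtubule lists, in 4 comparisons; red points passed an adjusted p of 0.05, grey points did not, and black bars mark list medians. After neomycin in siblings the folding list has its median at 0.999 and the modifying enzymes have theirs at −0.96, and the tubulins that were not members have no red point.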

How the data were processed

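For 12 RNA-seq libraries the authors deposited raw counts of reads, as whole numbers with no scaling, for each Ensembl gene ID. Per the submitters' processing notes the tools were bcl2fastq 2.18, STAR 2.7.3a, Bowtie2 and RSEM and the build was danRer11, with no role stated; annotation release and strand setting: not given in the sources used here. Libraries were made with SMART-Seq v4, per the labels' protocols. The 4 entries that name no gene took 28.2% to 35.2% of reads and were left out. The deposited file lists multi-mapping and ambiguous reads apart from the genes, so values of near-identical tubulin paralogs and of overlapping genes are uncertain. Counts have no molecular identifiers, so the limit given for a gene at 0 reflects counting error alone.

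A reference table of names gave symbols for 29201 IDs. Genes were filtered with filterByExpr (22000 left), scaled by TMM and fitted in edgeR 4.0.16 (R 4.3.3) with a mean per group over all 12 libraries; the quasi-likelihood test was two-sided, p-values were adjusted by Benjamini-Hochberg across the 22000 genes, and a gene rose, fell or was called at an adjusted p under 0.05. CPM used TMM-scaled library sizes, and log2 CPM a prior count of 2. A standard error is the absolute log2 fold change over the root of F. Scripts were tested on simulated data. The members and lists were chosen with earlier results of these data known. Of 272 list names 198 matched exactly, 58 by stem and 16 not. Named genes are the members, the other tubulins, up to 4 called genes per list (otherwise the 2 most abundant), the 10 genes most correlated with tubb6 and isl1a; ECI2, cidea and SUGCT were added after the data were seen, for their position. Alternatives were RLE scaling, DESeq2 1.42.0, no filter, only the compared groups, a replicate block and each library left out. Planned descriptions of protein and promoter sequence were not made. ATAC-seq (18 samples) was not analysed here.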

Additional observations from a re-analysis of the deposited data

How the results depend on the processing

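tubb6 was selected on these values, so its range over alternatives is a description. Over all alternatives its log2 fold change between genotypes ran from 4.37 to 5.15 in homeostasis and 3.80 to 4.25 at 3 h. After neomycin it ran from 1.77 to 2.17 in mutants and 2.34 to 3.12 in siblings, and the difference from −1.08 to −0.30. When 1 library was left out its share of beta counts ran from 1.90% to 2.69% in mutants and 0.141% to 0.225% in siblings at 3 h. In homeostasis it ran from 0.745% to 0.985% in mutants and 0.0314% to 0.0531% in siblings. That of tubb5 ran from 1.57% to 1.93%, 0.804% to 1.01%, 0.899% to 1.25% and 0.473% to 0.618% in the same groups. The correlation of tubb5 with tubb6 was 0.640 from deviations within groups. Counts of called genes moved more, and the cause was not tested. In homeostasis between genotypes (785 genes, 3 of the microtubule lists) they were 1796 and 13 with DESeq2, 2217 and 21 with only both groups in the fit, 1210 and 5 with the replicate block, and 295 to 2079 and 0 to 14 with 1 library left out (the highest without sibling replicate 2 at 3 h). At 3 h (2151 and 13) they were 3515 and 22 with DESeq2, 625 and 2 with both groups only, 20 list genes with the block, and 896 to 2964 and 4 to 21. After neomycin in mutants (3634 and 25) they were 6150 and 50 with both groups only and 2174 to 6147 and 19 to 51 with 1 library left out, and in siblings (4831 and 44) 2287 and 28, and 3060 to 5367 and 36 to 54. For the difference (23 and 0) DESeq2 gave 335 and 3, and leaving out 1 library 3 to 190 and 0 to 1.

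The replicate numbers do not pair the libraries by the labels. Of 18 same-numbered pairs 9 deviated together with r over 0.1 (median 0.124), and of 36 other pairs 6 did (median −0.046). With the number as a replicate block all calls of members held, and TUBA1A and tuba1c in homeostasis between genotypes, TUBA1A in mutants after neomycin and tuba8l5 in both responses to neomycin passed as well. The scarce forms rest on few counts (tubb1 on 7 to 137 a library), which limits the precision of their values.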
